A study of Arabidopsis thaliana with 45 samples.

Results

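The genes described here are PYK10 (AT3G09260) and 9 genes tied to it. These are the β-glucosidases BGLU18 (AT1G52400), BGLU19 (AT3G21370), BGLU21 (AT1G66270) and BGLU22 (AT1G66280), and the lectins PBP1 (AT3G16420) and JAL31 (AT3G16430). The others are the transcription factor NAI1 (AT2G22770) and the proteins NAI2 (AT3G15950) and MEB1 (AT4G27860) of the endoplasmic reticulum (ER) body. Each was taken by its locus from the probe set names, and all 10 were found among the 27827 probe sets measured. They were chosen by their levels in non-dormant and dormant seeds in water at 24 h, so every value that uses an array of water at 24 h is given as a description without a test.

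ER bodies are spindle-shaped compartments continuous with the endoplasmic reticulum, found in Brassicales, and in young Arabidopsis seedlings and roots they are packed with PYK10. PYK10 is a β-glucosidase that can act as a myrosinase on indole glucosinolates, and in intact tissue it is kept apart from its substrates until cells are damaged, when it meets cytosolic lectins such as PBP1 and forms large complexes. NAI1 is a basic helix-loop-helix transcription factor needed for PYK10 expression and for ER bodies, NAI2 is a protein of the ER body lumen needed for their formation, and MEB1 is a metal transporter family protein of the ER body membrane.

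The seeds were of the near-isogenic line NILDOG1-Cvi, which carries the region of DOG1 (DELAY OF GERMINATION 1, a dormancy gene) from the accession Cvi in Landsberg erecta, and every group shares this genotype. Seeds that were dormant or non-dormant took up either water or cordycepin, an inhibitor of transcription related to adenosine, during 6 h or 24 h, and 45 arrays measured their total or polysomal RNA (transcripts carrying several ribosomes). A group held 3 arrays, and 16 groups resulted; in polysomal RNA at 24 h, however, only non-dormant seeds in water had 3 arrays and the other groups had 2. Seeds of 8 plants were bulked per replicate, and the sources used here do not say how seeds became non-dormant. How far cordycepin stopped transcription in these seeds was not measured.

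Levels are log2 values that the authors made with RMA, so a difference of 1 is 2-fold and is relative to the other transcripts on the array. Array medians lay between 3.86 and 4.32, and the lower quartile of the probe sets of an array was between 2.24 and 2.92. A level in or under that range is called low below, and since no detection call was available, low does not mean absent. Tests are limma's moderated tests in 1 model over all 45 arrays, with Benjamini-Hochberg adjustment over 27827 probe sets in each comparison, and a gene rose or fell where the adjusted p was under 0.05. All 9 storage genes checked as seed markers (cruciferins, albumins and oleosins) had group means above the lower quartile range in all 16 groups, the lowest 6.77 for SESA2 and the highest 12.62 for CRC. In whole seeds, fewer cells of a type and less RNA per cell cannot be told apart.

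PYK10 was low in every group at 6 h, high in all non-dormant groups at 24 h, and in dormant seeds at 24 h it stayed low in total RNA and somewhat above in polysomal RNA. In non-dormant seeds in water at 24 h its levels were 9.55, 9.06 and 9.50 in total RNA and 9.12, 8.77 and 8.83 in polysomal RNA. In dormant seeds in water at 24 h they were 2.43, 3.08 and 2.47 in total RNA and 4.08 and 4.03 in polysomal RNA. The lowest non-dormant array therefore lay far above the highest dormant one in each RNA type. The group means differed by 6.71 in total RNA, which is 105-fold, and by 4.85 in polysomal RNA. Because the dormant level in total RNA is low, the fold there depends on how RMA treated the background.

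**Figure D1:**
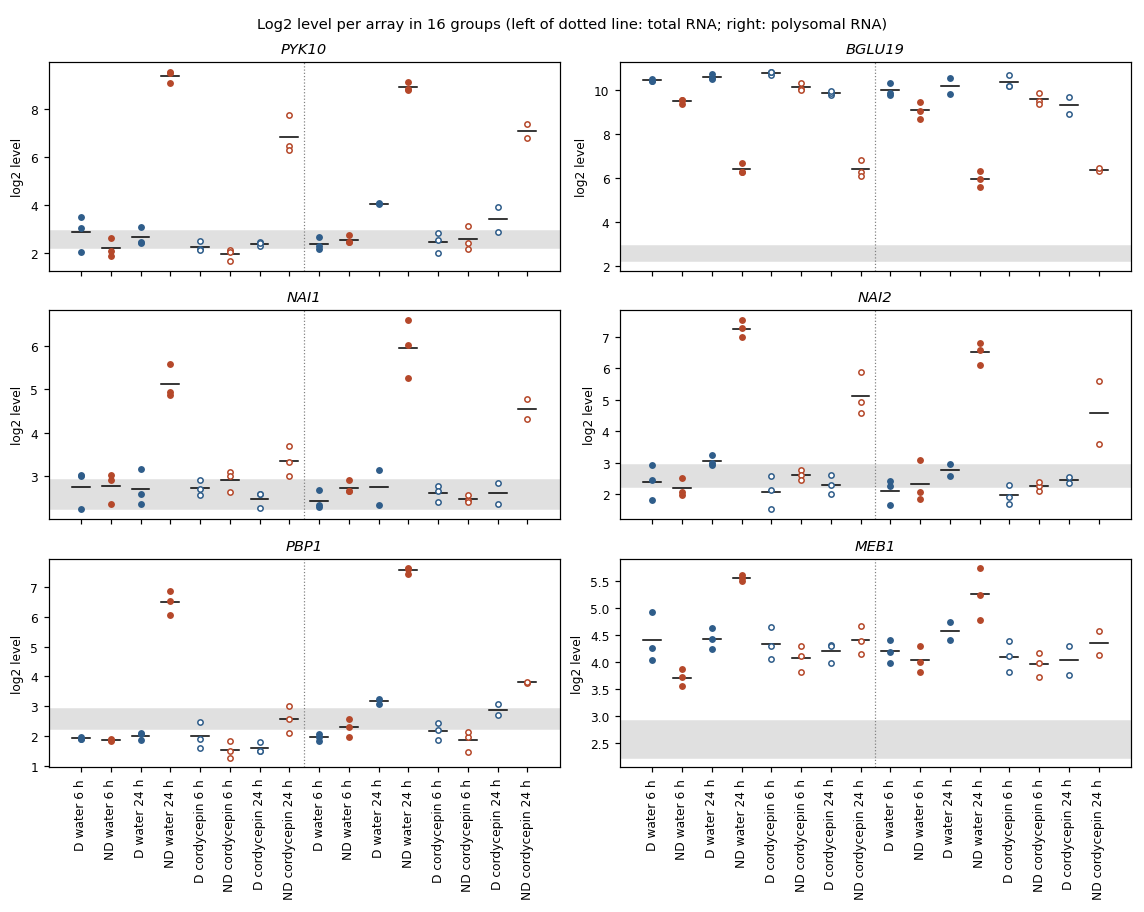
Log2 level per array of PYK10, BGLU19, NAI1, NAI2, PBP1 and MEB1 in the 16 groups (D dormant, blue; ND non-dormant, red; filled water, open cordycepin; the dash is the group mean; the grey band spans the arrays' lower quartiles; panels have their own vertical scales). PYK10, NAI1 and NAI2 have means above the band in every non-dormant group at 24 h, where BGLU19 is at its lowest, with means of 5.96 to 6.43. PBP1 is high there in water, but its mean in cordycepin in total RNA is 2.56, within the band.

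The arrays in cordycepin were not those whose values chose the genes. They hold the same kinds of seed at the same times, however, and earlier results of these data were known when the genes were chosen. In cordycepin at 24 h, PYK10 in total RNA stood at 7.73, 6.45 and 6.30 in non-dormant seeds, against 2.45, 2.29 and 2.42 in dormant seeds. In polysomal RNA it stood at 7.37 and 6.81 in non-dormant seeds and at 3.94 and 2.89 in dormant seeds. The groups did not overlap in either RNA type. The difference was 4.44 ± 0.33 (SE, 3 against 3 arrays, limma adjusted p = 3.78e-13), or 21.7-fold, in total RNA, a fold against a low dormant level with the same dependence on the background. In polysomal RNA it was 3.67 ± 0.40 (SE, 2 against 2 arrays, limma adjusted p = 1.08e-08), or 12.8-fold. At 6 h the PYK10 means lay between 1.96 and 2.88 in all 8 groups, and the 4 differences between the kinds of seed, from -0.66 to 0.18, did not pass the test.

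Between 6 h and 24 h in cordycepin, PYK10 rose in non-dormant seeds by 4.87 ± 0.33 in total RNA (SE, limma adjusted p = 1.62e-14) and by 4.50 ± 0.36 in polysomal RNA (limma adjusted p = 3.60e-12). In dormant seeds its change over the same interval was 0.11 in total RNA (limma adjusted p = 0.868) and 0.94 in polysomal RNA (limma adjusted p = 0.0842), the latter 1.46 (adjusted p = 0.0351) without replicate 2 of the 24 h group. The difference between the 2 time courses was itself tested in total RNA and came to 4.76 ± 0.46 (SE, limma adjusted p = 2.35e-09). In water, where no test was made, the rise from 6 h to 24 h in non-dormant seeds was 7.15 in total and 6.34 in polysomal RNA. In dormant seeds in water the polysomal level rose from values of 2.20, 2.29 and 2.67 at 6 h to 4.08 and 4.03 at 24 h, while in total RNA the arrays at 24 h lay within the range of those at 6 h. Ordered by group mean, PYK10 was highest in non-dormant seeds in water at 24 h in total RNA, then in the same seeds in polysomal RNA, and those 2 groups overlapped. The 2 cordycepin groups of non-dormant seeds at 24 h came next and overlapped each other, but not the water groups. Dormant seeds in water at 24 h in polysomal RNA followed, apart from the groups on both sides, and each of the other groups overlapped its neighbour in the order.

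BGLU19, a β-glucosidase of the same subfamily, followed the opposite course. Its levels in total RNA of dormant seeds in water were 10.42, 10.41 and 10.50 at 6 h and 10.56, 10.72 and 10.52 at 24 h. In non-dormant seeds they were 9.57, 9.37 and 9.56 at 6 h and 6.30, 6.30 and 6.69 at 24 h. Every non-dormant array thus lay under every dormant one at both times. At 6 h in water BGLU19 was already lower in non-dormant seeds by -0.94 ± 0.22 in total RNA (SE, limma adjusted p = 0.0068) and by -0.91 ± 0.22 in polysomal RNA (limma adjusted p = 0.0100).

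The total RNA call for BGLU19 was lost when the spread was estimated from the 2 groups compared alone (limma adjusted p = 0.0513). The polysomal call was lost in the same setting (0.132) and also without replicate 2 of the dormant group (-0.74, adjusted p = 0.0960) or replicate 3 of the non-dormant group (-0.73, adjusted p = 0.102). At 6 h in cordycepin the same direction was seen without passing the test, with -0.66 in total RNA (limma adjusted p = 0.0861) and -0.76 in polysomal RNA (limma adjusted p = 0.0552), and the groups did not overlap in either. Without replicate 2 of the non-dormant group the polysomal value was -0.91 (adjusted p = 0.0374). BGLU19 was the single member called in each 6 h water comparison, against 2.82% of all probe sets called lower in total RNA and 2.19% in polysomal RNA. In total RNA the groups were also apart for MEB1 (-0.69, limma adjusted p = 0.0695), which was called in 4 alternatives, and for JAL31 (-0.42, adjusted p = 0.326). In cordycepin at 6 h 0 of 10 members were called by limma, against 4.83% and 2.96% of probe sets called in either direction. At an unadjusted p under 0.05, BGLU19, BGLU22 and PBP1 passed in total RNA and BGLU19 in polysomal RNA. The total RNA groups were apart there for BGLU22 (-0.89, limma adjusted p = 0.246) and BGLU21 (-0.71, adjusted p = 0.436) as well.

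In cordycepin at 24 h, BGLU19 in total RNA was at 6.28, 6.12 and 6.82 in non-dormant seeds and at 9.76, 9.87 and 9.95 in dormant seeds. In polysomal RNA the levels were 6.34 and 6.44 against 8.94 and 9.69. It was lower in non-dormant seeds by -3.45 ± 0.22 in total RNA (SE, limma adjusted p = 1.57e-14) and by -2.92 ± 0.27 in polysomal RNA (limma adjusted p = 4.37e-10), an 11.0-fold and a 7.59-fold difference. In non-dormant seeds at 24 h the means in cordycepin differed from those in water by -0.02 in total RNA, with overlapping arrays, and by 0.44 in polysomal RNA, with arrays that did not overlap. In dormant seeds at 24 h the means in cordycepin were lower than in water by -0.74 in total and -0.88 in polysomal RNA, with groups apart in both. From 6 h to 24 h in cordycepin BGLU19 fell by 3.72 in non-dormant and by 0.92 in dormant seeds in total RNA (limma adjusted p = 1.25e-15 and 0.00289). In polysomal RNA it fell by 3.20 and by 1.04 (limma adjusted p = 1.52e-12 and 0.00315), and the second of these was -0.66 with an adjusted p of 0.181 without replicate 1 of the dormant 24 h group. In total RNA the difference between the time courses was -2.80 ± 0.32 (SE, limma adjusted p = 6.30e-08). The mean of BGLU19 in dormant seeds in water at 24 h differed from that at 6 h by 0.16 in total RNA.

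**Figure D2:**
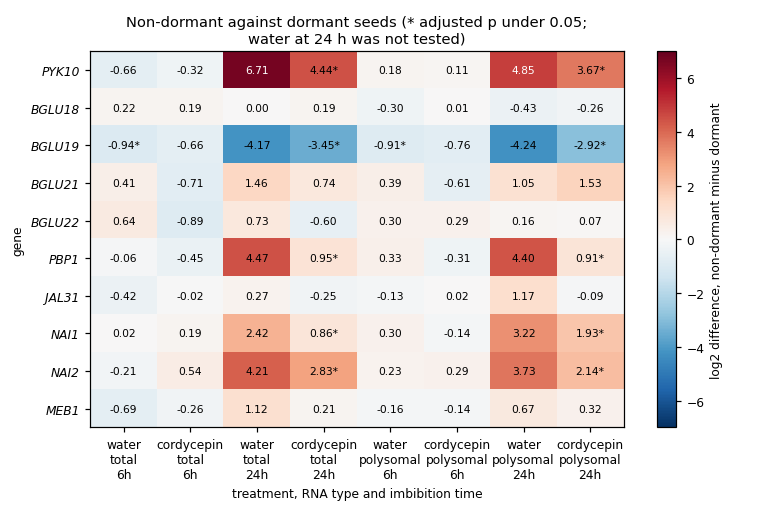
Log2 difference of non-dormant minus dormant seeds for the 10 genes, by treatment, RNA type and imbibition time (colour and printed value; an asterisk marks an adjusted p under 0.05 in limma; water at 24 h was not tested). At 6 h the differences run from -0.94 to 0.64, and at 24 h PYK10, PBP1, NAI1 and NAI2 are positive and BGLU19 is negative in all 4 settings.

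The other ER body β-glucosidases were low in most groups, BGLU18 in 14 of the 16, BGLU21 in 10 and BGLU22 in 10. BGLU18, known from wound-inducible ER bodies of leaves, had group means of 2.03 to 2.93, and none of its 16 tested differences passed. BGLU21 and BGLU22, close relatives of PYK10 in root ER bodies, had group means of 2.01 to 3.71 and 2.12 to 4.25. Their loci are neighbours with 0 protein-coding genes between them, and how much probe sets of such similar genes respond to each other's transcripts was not tested. BGLU21 in polysomal RNA at 24 h in cordycepin was 3.09 and 3.98 in non-dormant seeds and 2.13 and 1.88 in dormant seeds, a difference of 1.53 ± 0.56 that did not pass (limma adjusted p = 0.0647). It passed after quantile normalization of all arrays (1.71, adjusted p = 0.0361) and with the spread of the 4 arrays alone (adjusted p = 0.0297). From 6 h to 24 h in cordycepin in dormant polysomal RNA the BGLU21 mean went from 3.30 to 2.01, a difference of -1.30 with groups apart that did not pass (limma adjusted p = 0.0875) but did after quantile normalization of all arrays (-1.47, adjusted p = 0.0469) and with only the groups compared (adjusted p = 0.0279).

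BGLU22 had its highest group mean in total RNA of dormant seeds at 6 h in cordycepin. Its levels there were 4.05, 3.89 and 4.81, against 2.78, 2.80 and 1.13 in water, so the groups did not overlap and 1 water array lay well under the other two. The difference of 2.01 ± 0.42 (SE, limma adjusted p = 0.0239) made BGLU22 the 1 member called in this comparison, where 0.104% of probe sets were called higher. Without replicate 3 of the water group it was 1.46 (adjusted p = 0.114), and without replicate 1 or 3 of the cordycepin group the adjusted p was 0.0540 or 0.0884. In the same comparison of non-dormant seeds 0 of 10 members were called by limma, against 0.0827% of probe sets, and BGLU19 alone passed at an unadjusted p under 0.05. In dormant seeds in cordycepin at 6 h the polysomal mean of BGLU22 was 2.32, lower than its total RNA mean by -1.93 with groups apart, a difference without a test. JAL31, a jacalin-related lectin, was low in 15 of the 16 groups. The exception was polysomal RNA of non-dormant seeds in water at 24 h, with 2.83, 3.47 and 2.64 against 1.88 and 1.74 in dormant seeds.

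**Figure D3:**
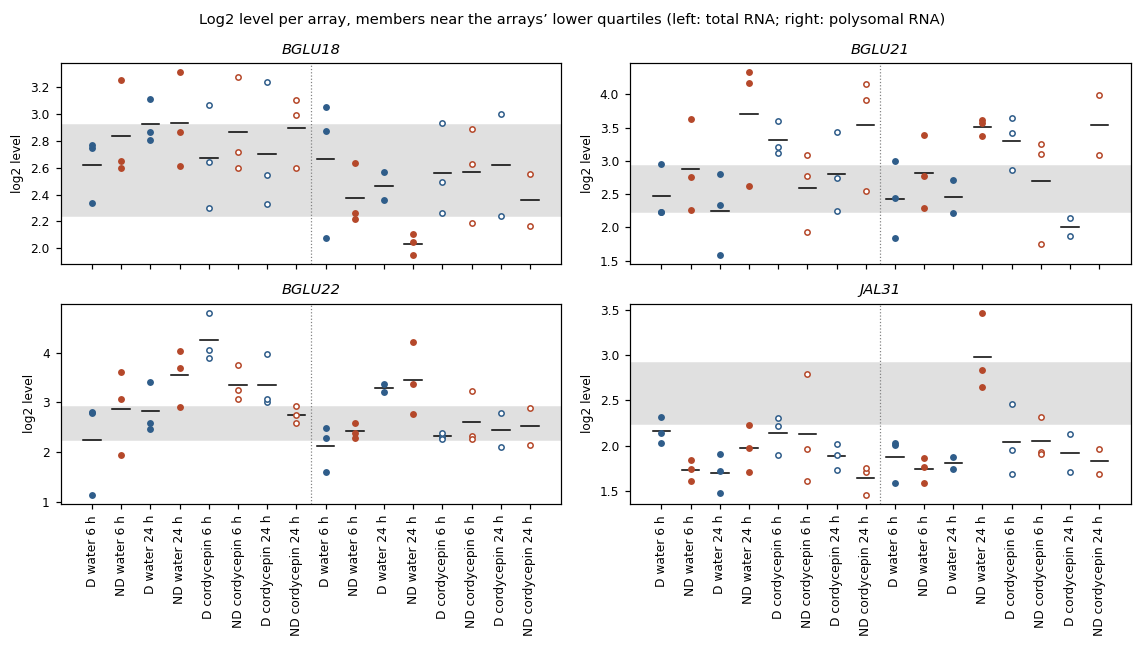
Log2 level per array of BGLU18, BGLU21, BGLU22 and JAL31 in the 16 groups (D dormant, blue; ND non-dormant, red; filled water, open cordycepin; the dash is the group mean; the grey band spans the arrays' lower quartiles; panels have their own vertical scales). Most arrays lie in or near the band, BGLU22 peaks at a mean of 4.25 in dormant seeds in cordycepin at 6 h, and JAL31 at 2.98 in non-dormant polysomal RNA in water at 24 h.

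NAI1, the regulator, had means of 2.44 to 2.92 in the 8 groups at 6 h, and it was low in all 4 dormant groups at 24 h. In non-dormant seeds in water at 24 h it stood at 4.86, 4.94 and 5.58 in total RNA and at 5.26, 6.02 and 6.60 in polysomal RNA. In cordycepin at 24 h its total RNA levels were 3.02, 3.70 and 3.32 in non-dormant seeds, against 2.27, 2.59 and 2.60 in dormant seeds. The polysomal levels in cordycepin were 4.31 and 4.78 against 2.85 and 2.37. All 4 pairs of groups at 24 h were apart, and the non-dormant levels were nearest the low range in total RNA in cordycepin. In cordycepin the polysomal difference was 1.93 ± 0.34 (SE, limma adjusted p = 5.78e-05). The total RNA difference was 0.86 ± 0.27 (limma adjusted p = 0.0248). The latter call was lost without replicate 1 of the dormant group (0.75, adjusted p = 0.111), without replicate 2 or 3 of the non-dormant group (0.68 and 0.87, adjusted p = 0.154 and 0.0589), and after quantile normalization of all arrays (0.75, adjusted p = 0.0669). From 6 h to 24 h in cordycepin, NAI1 in non-dormant seeds rose by 2.07 ± 0.31 in polysomal RNA (limma adjusted p = 1.35e-06), and its change in total RNA was 0.43 (limma adjusted p = 0.275).

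NAI2, the ER body lumen protein, was likewise high in non-dormant seeds at 24 h. In water at 24 h its total RNA levels were 6.98, 7.27 and 7.54 in non-dormant seeds and 2.98, 3.25 and 2.92 in dormant seeds. In polysomal RNA it was at 6.60, 6.11 and 6.80 against 2.97 and 2.58. In cordycepin at 24 h the total RNA levels were 5.90, 4.92 and 4.59 against 2.30, 2.61 and 2.0. Non-dormant arrays lay above all dormant ones in each case, and the cordycepin arrays of non-dormant seeds lay under those in water. The cordycepin difference was 2.83 ± 0.36 (SE, limma adjusted p = 1.81e-07), or 7.12-fold, in total RNA, where the dormant level is low and the fold depends on the background. In polysomal RNA the 2 non-dormant cordycepin arrays stood apart at 5.60 and 3.59, against 2.56 and 2.36 in dormant seeds, and the difference of 2.14 ± 0.45 (limma adjusted p = 0.00061) was 1.13 (adjusted p = 0.136) without replicate 1 of the non-dormant group. From 6 h to 24 h in cordycepin NAI2 rose in non-dormant seeds by 2.52 in total and 2.34 in polysomal RNA (limma adjusted p = 6.77e-07 and 1.76e-05). In dormant seeds the changes were 0.22 and 0.49 and did not pass (0.754 and 0.536).

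MEB1 and BGLU19 were the 2 members with no group mean in the low range, and the means of MEB1 spanned 1.84 against 4.83 for BGLU19. The MEB1 means ran from 3.71 to 5.55, and the 2 highest were non-dormant seeds in water at 24 h. There it stood at 5.49, 5.61 and 5.56 in total RNA, against 4.63, 4.42 and 4.24 in dormant seeds, and at 5.23, 4.78 and 5.73 in polysomal RNA, against 4.75 and 4.40. The groups were apart in both RNA types, by 1.12 and 0.67. In cordycepin at 24 h the differences were 0.21 and 0.32 and did not pass (limma adjusted p = 0.658 and 0.586). At 6 h in water the total RNA levels were 3.87, 3.72 and 3.56 in non-dormant and 4.25, 4.04 and 4.92 in dormant seeds, a difference of -0.69 (limma adjusted p = 0.0695) that was -0.87 (adjusted p = 0.0330) without replicate 2 of the dormant group.

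PBP1, the lectin that binds PYK10, had the largest difference of the 10 members between cordycepin and water in non-dormant seeds at 24 h, in each RNA type. In non-dormant seeds in water at 24 h it stood at 6.53, 6.07 and 6.87 in total RNA and at 7.63, 7.45 and 7.61 in polysomal RNA. In cordycepin it stood at 2.58, 2.99 and 2.11 in total RNA and at 3.79 and 3.80 in polysomal RNA. The 2 treatments did not overlap in either RNA type, and the means in cordycepin were lower by -3.93 in total and -3.77 in polysomal RNA. For PYK10 the same difference was -2.54 and -1.82, for NAI2 -2.13 and -1.91, for NAI1 -1.78 and -1.42, and for MEB1 -1.15 and -0.89. In dormant seeds at 24 h the difference for PBP1 was -0.41 in total and -0.28 in polysomal RNA, with groups apart. Lower by more than PBP1, with groups apart, were NAI2 (-0.75) and BGLU19 (-0.74) in total RNA. In polysomal RNA these were BGLU19 (-0.88), BGLU22 (-0.85), PYK10 (-0.64), MEB1 (-0.54), BGLU21 (-0.45) and NAI2 (-0.32). These values share the water arrays that chose the genes and were not tested. Groups apart and at least 2-fold lower in cordycepin were found for 5 of 10 members in each RNA type, against 1.35% of probe sets in total and 1.57% in polysomal RNA. In total RNA these were PYK10, PBP1, NAI1, NAI2 and MEB1, and in polysomal RNA JAL31 (-1.16) took the place of MEB1.

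Within cordycepin at 24 h, PBP1 was still higher in non-dormant than in dormant seeds. In total RNA the dormant levels were 1.51, 1.80 and 1.51 and the difference was 0.95 ± 0.22 (SE, limma adjusted p = 0.00179). Both means there, 2.56 in non-dormant and 1.61 in dormant seeds, were low, so this difference depends on how RMA treated the background. In polysomal RNA the dormant levels were 3.06 and 2.71 and the difference was 0.91 ± 0.27 (limma adjusted p = 0.0199). The polysomal call was lost without replicate 2 of the dormant group (0.73, adjusted p = 0.199), without either non-dormant array (0.92 and 0.91, adjusted p = 0.0863 and 0.0962), with array weights (0.0789) and with the spread of the 4 arrays alone (0.110). From 6 h to 24 h in cordycepin PBP1 rose in non-dormant seeds by 1.02 in total RNA, between low means of 1.54 and 2.56 (limma adjusted p = 0.000379). In polysomal RNA PBP1 rose there by 1.94 (limma adjusted p = 9.17e-08). In dormant seeds it rose by 0.72 in polysomal RNA (limma adjusted p = 0.0490), a call lost in 9 of 13 alternatives, among them leaving out either dormant array of 24 h (0.54 and 0.89, adjusted p = 0.339 and 0.0808). All polysomal means of PBP1 at 24 h lay above the total RNA means of the same seeds and treatment, by 1.07 to 1.28, and the arrays of the 2 RNA types did not overlap.

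Counted over the members, 4 of 10 were higher and 1 was lower in non-dormant seeds in cordycepin at 24 h in total RNA, where 8.86% of all probe sets were called higher and 7.79% lower. PBP1, among those higher, had low means in both kinds of seed there. In polysomal RNA the same 5 genes were called, 4 higher and 1 lower, against 7.7% and 5.86% of probe sets. The median difference of the 10 members was 0.47 in total and 0.61 in polysomal RNA, beside medians over all probe sets of -0.03 and -0.04. In water at 24 h, where the members were chosen, 5 were higher with groups apart and at least 2-fold in total RNA (PYK10, PBP1, NAI1, NAI2 and MEB1) and 6 in polysomal RNA (JAL31 and BGLU21 in place of MEB1). BGLU19 was lower in both. The background there was 6.15% higher and 3.59% lower in total RNA, and 6.76% and 4.27% in polysomal RNA.

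Over time in cordycepin, non-dormant seeds had 3 members higher and 1 lower at 24 h in total RNA (background 15.8% and 13.6%) and 4 higher and 1 lower in polysomal RNA (15.1% and 13.9%). In total RNA 1 more call came from BGLU21 (0.94, limma adjusted p = 0.127) without replicate 3 of the 24 h group, at 1.44 (adjusted p = 0.0232). JAL31 (-0.49, adjusted p = 0.121) gave 1 without replicate 3 of the 6 h group, at -0.74 (adjusted p = 0.0214). Dormant seeds had BGLU19 lower in total RNA (background 7.19% lower), and PBP1 higher and BGLU19 lower in polysomal RNA (7.8% and 6.62%). The difference between these time courses in total RNA was called for PYK10, NAI2 and PBP1 in the positive and BGLU19 in the negative direction, against 3.83% and 3.86% of probe sets.

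At 6 h in water the RNA types gave no call by limma among the members, with 0 of 10 in dormant and 0 of 10 in non-dormant seeds. Over all probe sets 24.3% and 24.9% were called there. At an unadjusted p under 0.05 the count was also 0 in both kinds of seed, and BGLU19 had differences of -0.45 in dormant and -0.42 in non-dormant seeds. The dependence of the dormancy difference on RNA type at 6 h was called for 0 of 10 members by limma and for 0.00359% of probe sets, and 0 of 10 members had an unadjusted p under 0.05. At 24 h, values without a test put PBP1 above its total RNA level in polysomal RNA in all 4 pairs of groups. PYK10 was higher in polysomal RNA of dormant seeds by 1.39 in water and by 1.03 in cordycepin, with groups apart, whereas in non-dormant seeds the values were -0.47 and 0.26 with overlapping groups. NAI1 in non-dormant seeds was higher in polysomal RNA by 0.84 in water, with overlapping groups, and by 1.19 in cordycepin, with groups apart. NAI2 was lower in polysomal RNA of non-dormant seeds in water by -0.76, with groups apart, and in cordycepin by -0.54, with overlapping groups.

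Across the 16 group means, the level of PYK10 correlated with that of NAI2 at r = 0.97, NAI1 at 0.92, PBP1 at 0.90, MEB1 at 0.83 and BGLU21 at 0.68. BGLU19 correlated with it at -0.93. These values describe 16 points that fall into a high and a low set, as the plot of group means shows, and the genes were measured on the same arrays. The groups in water at 24 h, whose values chose the genes, are among the 16, so the choice itself can raise these correlations. Within groups the deviations of single arrays from their means gave r = 0.12 for PYK10 with NAI2, -0.23 with NAI1, 0.18 with PBP1 and -0.25 with BGLU19 over 45 arrays.

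**Figure D4:**
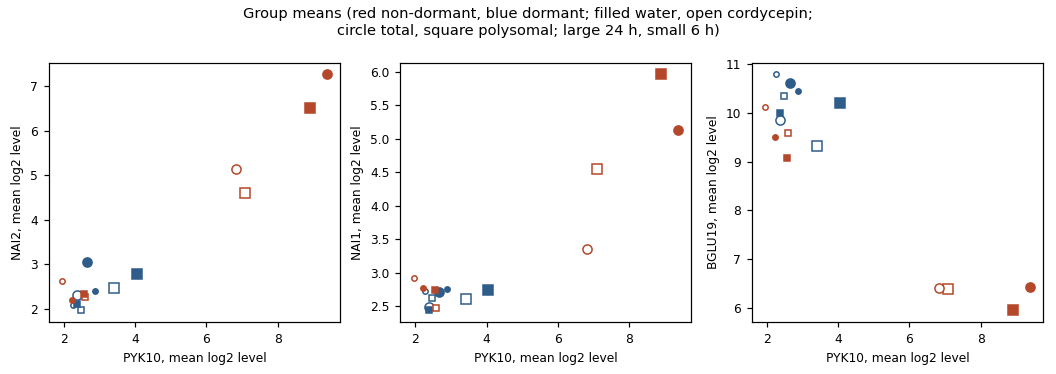
Group means (log2 level) of NAI2, NAI1 and BGLU19 against that of PYK10 in the 16 groups (red non-dormant, blue dormant; filled water, open cordycepin; circle total, square polysomal RNA; large 24 h, small 6 h). The 4 non-dormant 24 h groups, with PYK10 at 6.83 to 9.37, lie apart from the other 12, and for NAI1 the cordycepin group in total RNA is the lowest of the 4 at 3.35.

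Among genes with a symbol that are no members, those whose 16 group means were most like those of PYK10 were PAP17 (a purple acid phosphatase, r = 0.989), PMEPCRA (a pectin methylesterase, 0.985), SQS1 (squalene synthase, 0.984), ALDH11A3 (an aldehyde dehydrogenase family member, 0.984) and IGMT5 (an indole glucosinolate methyltransferase, 0.981). NAI2 was at place 24 of the 27826 other probe sets in this order, NAI1 at 355 and PBP1 at 596. BGLU19 was most like EM1 and GEA6 (both late embryogenesis abundant proteins, 0.981 and 0.976), HSD5 (a hydroxysteroid dehydrogenase, 0.977), LEA (named for the same class of proteins, 0.975) and NSP2 (a nitrile-specifier protein, 0.972). NAI1 was most like PAL3 (a phenylalanine ammonia-lyase, 0.979), the NAC-domain gene NAC084 (0.969), XYP2 (0.968), LP1 (a lipid transfer protein, 0.968) and RGL1 (a DELLA repressor of gibberellin response, 0.967). PBP1 held place 106 in the order for NAI1. Many probe sets shared such a course, as the places of NAI2 and NAI1 in the order for PYK10 show. The places of members also rest in part on the groups in water at 24 h that chose them.

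Of 11 other ER body and PYK10 complex genes, 3 rose and 0 fell in non-dormant against dormant seeds in cordycepin at 24 h, in total and in polysomal RNA alike. Over all probe sets 8.86% were called higher and 7.79% lower in total RNA and 7.7% and 5.86% in polysomal RNA, and these shares are the background of the list counts that follow. All 3 were GDSL lipase-like proteins of the PYK10 complex. GLL22 was higher by 2.52 in total RNA (limma adjusted p = 5.27e-09), GLL23 by 2.44 (1.39e-07) and GLL25 by 0.94 (0.000258). GLL22 means in total RNA at 24 h were 6.07 (non-dormant) and 3.55 (dormant) in cordycepin, and 7.02 and 4.86 in water. TSA1, a relative of NAI2 and the neighbour of BGLU18, had group means of 1.38 to 2.12, and MEB2, the second membrane protein, 2.55 to 3.44. The median difference of the 11 genes was 0.25 in total and 0.07 in polysomal RNA.

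PBP1 lies in a run of specifier and jacalin-lectin genes along chromosome 3, from NSP3 to JR1, of which 9 of 10 neighbouring protein-coding genes were looked at here. Differences in this run were uneven. In water at 24 h JAL34, a jacalin-related lectin, stood beside PBP1 with non-dormant minus dormant differences of 2.48 in total and 3.84 in polysomal RNA, where PBP1 had 4.47 and 4.40. JAL31, the gene next to PBP1, had 0.27 and 1.17. In cordycepin JAL34 had 0.29 and 0.65 and did not pass (limma adjusted p = 0.572 and 0.227). JAL34 means in non-dormant seeds in total RNA at 24 h were 5.31 in water and 2.96 in cordycepin.

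**Figure D5:**
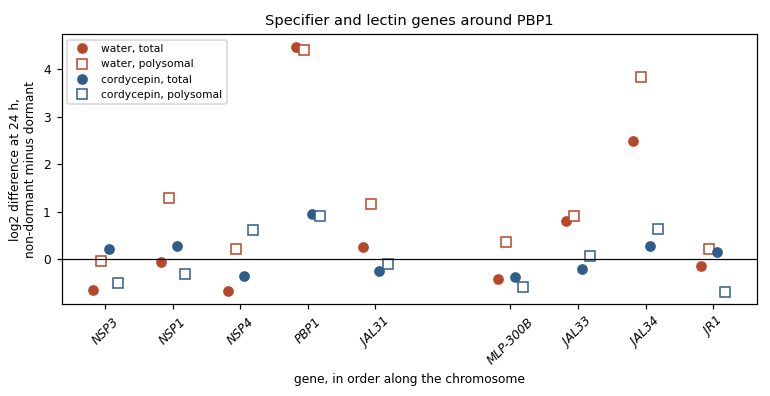
Log2 difference of non-dormant minus dormant seeds at 24 h for the specifier and lectin genes around PBP1, in their order along chromosome 3 (filled circle total RNA, open square polysomal RNA; red water, blue cordycepin; the gap is a gene that was not looked at; spacing is not to scale). In water PBP1 and JAL34 stand highest, PBP1 at 4.47 and 4.40, and in cordycepin all values lie between -0.69 and 0.95.

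Among 7 proteins that steer the products of glucosinolate breakdown, ESM1 was higher and NSP2 lower in non-dormant seeds in cordycepin at 24 h. In total RNA the differences were 1.19 for ESM1 and -2.13 for NSP2 (limma adjusted p = 0.000132 and 1.03e-09), and in polysomal RNA 1.54 and -2.33 (8.53e-05 and 2.44e-08). Of 10 genes of indole glucosinolate synthesis, which makes a class of substrates of PYK10, 6 rose and 0 fell in total RNA and 4 rose and 0 fell in polysomal RNA, against 8.86% and 7.7% of all probe sets called higher. CYP83B1 rose by 3.20, the regulator MYB34 by 2.24, SOT16 by 1.77 and CYP81F2 by 1.31 in total RNA (limma adjusted p = 1.05e-13, 9.32e-06, 2.72e-11 and 0.000744). In water at 24 h, without a test, 8 of the 10 were apart and at least 2-fold higher in each RNA type, against 6.15% of all probe sets in total and 6.76% in polysomal RNA.

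The 42 other β-glucosidases of the same glycoside hydrolase family, myrosinases included, had calls in both directions. Of these, 2 rose and 4 fell in total RNA in cordycepin at 24 h (4.76% and 9.52% of the 42, against 8.86% and 7.79% of all probe sets). In polysomal RNA 2 rose and 3 fell (4.76% and 7.14%, against 7.7% and 5.86%), and the medians were -0.02 and -0.08. These shares lie near those of all probe sets. The 6 calls in total RNA became 3 without replicate 1 of the dormant group, and the 5 in polysomal RNA became 3 without either dormant array and 2 without replicate 1 of the non-dormant group. BGLU4 was higher by 2.42 and BGLU9 by 1.57 in total RNA, and BGLU3 was lower by -1.61 and DIN2, a gene known from darkness and sugar starvation, by -1.15 (limma adjusted p = 9.85e-07, 0.00542, 0.00618 and 0.000488). The myrosinase TGG1 had total RNA means of 6.29 in non-dormant and 5.95 in dormant seeds, and the atypical myrosinase PEN2 had 4.62 and 4.63.

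Of the tissue markers, the storage genes moved together in the same comparison, while called endosperm genes went both ways and no seed coat gene was called. All 9 storage genes fell in non-dormant seeds in cordycepin at 24 h, in total and in polysomal RNA, with medians of -1.04 and -1.25, against 7.79% and 5.86% of all probe sets called lower. Their summed level, as log2, ranged from 13.68 to 13.86 in non-dormant and from 14.76 to 14.80 in dormant seeds in total RNA, and from 13.54 to 13.67 and 14.42 to 14.82 in polysomal RNA. In water at 24 h it ranged from 13.02 to 13.38 and 14.62 to 14.77 in total RNA, and from 12.65 to 13.07 and 14.41 to 14.52 in polysomal RNA. Of 9 endosperm genes, EXPA2 and NCED6 rose, by 5.51 and 3.78 in total RNA, and EPR1 fell by 0.81 (limma adjusted p = 1.91e-16, 1.95e-10 and 5.13e-05). The same 3 were called in polysomal RNA. The summed endosperm level ranged from 10.52 to 10.68 in non-dormant and from 10.98 to 11.22 in dormant seeds in total RNA, and from 10.07 to 10.22 and 10.38 to 10.74 in polysomal RNA. This sum adds unlogged levels, so it mostly follows the genes with the highest levels. It was lower in non-dormant seeds although EXPA2 and NCED6 rose, and it does not stand for the list as a whole. In total RNA 4 of the 9 genes in non-dormant and 3 in dormant seeds had means above the lower quartile range. In polysomal RNA these were 4 and 2. AGL62, FIS2 and IKU2 had low means in every group, and no gene of these lists is at 0 on this scale. Of 7 seed coat genes 0 were called by limma in either RNA type, and 0 had an unadjusted p under 0.05. Their summed level ranged from 5.50 to 5.57 in non-dormant and from 5.32 to 5.55 in dormant seeds in total RNA. In polysomal RNA it ranged from 4.91 to 5.21 and 5.21 to 5.36. In each kind of seed only 3 of these 7 genes had a total RNA mean above the lower quartile range, and 0 a polysomal one. With most of the list low, the absence of calls says little about the seed coat. The part of these shifts in the differences of PYK10, BGLU19 and the other members was not tested.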

How the data were processed

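The deposited table holds log2 values that the authors made with RMA, a background correction, normalization and probe summary, per the submitters' processing notes, which give no version. The sources used here do not name the array type. Arrays were grouped by their titles. The labels' treatment protocol speaks of dry seeds and their molecule field of total RNA for every array, and the titles were followed. Of the 27827 probe sets, 27241 matched a locus of a RefSeq annotation of assembly TAIR10.1, used for names and gene order only. No sequence is shown, since none was at hand.

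A linear model gave each group 1 mean, using limma 3.58.1 under R 4.3.3 and data.table (version 1.17.8), with 29 residual degrees of freedom and a prior of 6.39 degrees of freedom, and 16 comparisons were tested. No filter was applied. The number of arrays limits precision, and p-values measure the spread between bulks pooled over all groups. Counts in comparisons without a test needed groups apart and a log2 difference of at least 1, and single described values had no threshold. Likeness is Pearson's r over 16 group means. The named genes are the 10 members, the 5 most alike genes with a symbol for PYK10, BGLU19 and NAI1, and up to 4 genes of each of 7 lists with the largest differences, with TSA1, MEB2, TGG1, PEN2, JAL34 and markers named beside them for their role or place. The members and lists were chosen with earlier results of these data known. The fit was tested on simulated data with 200 changed probe sets. No 2 arrays held identical values. Alternatives were quantile normalization, only the groups compared, trend and robust estimation, array weights, a filter on low probe sets, a replicate block, and leaving out each array.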

Additional observations from a re-analysis of the deposited data

Results flagged for a closer look

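For 4 members the difference between non-dormant and dormant seeds in cordycepin changed between 6 h and 24 h in total RNA, by a test of the interaction itself in limma. PYK10 had an interaction of 4.76 ± 0.46 (SE, adjusted p = 2.35e-09), with every dormant array of both times under every non-dormant array of 24 h. BGLU19 had -2.80 ± 0.32 (adjusted p = 6.30e-08). NAI2 had 2.30 ± 0.51 (adjusted p = 0.00284). PBP1 had 1.41 ± 0.32 (adjusted p = 0.00289), between levels that were at most 2.99. Over all alternatives the highest adjusted p of these 4 was 0.0430, for PBP1. Groups of 2 or 3 arrays were too small for a check of single outlying arrays.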

How the results depend on the processing

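No member changed direction in a called comparison under any alternative run. The calls of PYK10 and BGLU19 between seed kinds in cordycepin at 24 h held in every alternative. Counts of called members moved as follows, with non-dormant against dormant seeds meant unless another contrast is named. In water at 6 h in total RNA the 1 call became 2 with quantile normalization over all arrays or within RNA type (MEB1 added) and 0 with only the groups compared, which also gave 0 in polysomal RNA. In cordycepin at 6 h the 0 became 1 (BGLU19) in total RNA with trend and robust estimation, and in polysomal RNA with both quantile normalizations, trend and robust estimation, array weights and the filter, which 8 of 10 members passed. In cordycepin at 24 h the 5 in total RNA became 4 with quantile normalization over all arrays (NAI1 lost). The 5 in polysomal RNA became 6 with it (BGLU21 added) and 4 with array weights (PBP1 lost), and with only the groups compared BGLU21 took the place of PBP1. For 24 h against 6 h in dormant polysomal RNA in cordycepin the 2 became 1 with trend and robust estimation and array weights (PBP1 lost), and 3 with quantile normalization over all arrays (BGLU21 added). With only the groups compared both calls, BGLU19 (adjusted p = 0.0745) and PBP1 (0.167), were lost and the 1 was BGLU21. For cordycepin against water in dormant seeds at 6 h the 1 became 0 with only the groups compared and with array weights. For polysomal against total RNA in non-dormant seeds the 0 became 1 (MEB1) with quantile normalization over all arrays, which also moved the PBP1 difference in polysomal RNA in water at 24 h from 4.40 to 4.08.

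Plants grew in randomized complete blocks of 3 replicates, per the labels, which do not say that the number of an array marks its block. Deviations of arrays of the same number correlated with a median of 0.0157 (-0.0989 to 0.0995) in total RNA, against -0.00709 for other numbers, and of 0.263 (-0.0142 to 0.492) in polysomal RNA, against -0.164. Since not every pair was over 0.1, the numbers were not taken to pair arrays. Every pair was over 0.1, however, in some polysomal comparisons in cordycepin. These were seed kinds at 24 h (0.340) and 24 h against 6 h in dormant (0.142 to 0.251) and non-dormant seeds (0.116 to 0.265). For seed kinds at 24 h, the deviations in groups of 2 arrays mirror each other, so both pairs give the 1 value. Seed kinds at 6 h in polysomal RNA had pairs of 0.0677 to 0.348 in water and 0.0668 to 0.400 in cordycepin. The p-values of all these comparisons in the main model take no account of these correlations. With a replicate block, the cordycepin count in polysomal RNA at 6 h was 1 and the dormant time count in polysomal RNA was 1. With a replicate block within RNA type those were 1 and 1, and the count was 2 in water total RNA at 6 h, and 1 (BGLU19) in cordycepin total RNA at 6 h, for cordycepin against water in non-dormant seeds, and for polysomal against total RNA in both kinds of seed. These calls are not read as paired results.

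Leaving out 1 array gave 1 to 2 calls in water total RNA and 0 to 1 in water polysomal RNA at 6 h, 0 to 1 in cordycepin polysomal RNA at 6 h, 4 to 5 in total and 3 to 5 in polysomal RNA in cordycepin at 24 h, 0 to 2 for the dormant time course in polysomal RNA, 4 to 5 for the non-dormant one in total RNA, and 0 to 1 for cordycepin against water in dormant seeds. Where an array of a pair was left out, the lone array was assumed to vary like the other groups. Counts of the other β-glucosidases in polysomal RNA in cordycepin at 24 h ran from 1 to 6. Quantile normalization moved the share of higher calls for cordycepin against water in non-dormant seeds at 6 h from 26.1% to 37.9%, among few calls. The cause of these changes was not tested.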
